A study of Homo sapiens with 12 samples.

Results

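Vault RNA 1-2 (VTRNA1-2) was the 1 small RNA to pass edgeR's adjusted test, at a higher level in cells with a catalytically inactive DIS3L2. Its log2 fold change was 2.16, and no small RNA passed as lower. DESeq2 also called RNY4 higher. VTRNA1-2 did not pass in edgeR with mut library 1, WT library 2 or WT library 3 left out. The data are the 6 small RNA libraries of a series of 12 libraries, 3 from cells producing mutant DIS3L2 (mut) and 3 from cells producing the wild-type protein (WT), taken by their titles. The deposited tables list 15590 features, of which the 10796 annotated small RNA features are the main set and the other 4794 are loci that the submitters reconstructed from reads. Of the annotated features, 1065 held at least 1 fragment in some library and 559 passed the filter on low counts.

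All cells were HEK293, an established human embryonic kidney line, carrying an inducible Flp-In T-REx cassette. In both groups the cassette encoded recoded DIS3L2 with a C-terminal FLAG tag together with sh-miRNAs against the endogenous DIS3L2 mRNA, and both groups received 100 ng/ml doxycycline for 3 days. The groups therefore share the knockdown of the endogenous transcript and differ in the variant put back, wild-type or catalytic mutant. RNA was depleted of rRNA, treated with TAP (an enzyme that opens 5′ caps and triphosphates) and gel-selected from 20 to 200 nt per the labels, or to 220 nt per the series description. The labels do not say whether replicates came from separate cultures or whether each variant was 1 clone, so p-values cover the variation among these 6 libraries alone, and that variation may be technical. The DIS3L2 mRNA was not analysed here, so the small RNA tables do not check the labelled genotype.

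DIS3L2 trims RNA in the cytoplasm from its 3′ end and prefers RNAs carrying an oligouridine tail, which terminal uridylyltransferases add. It is best known for degrading uridylated let-7 precursors, and uridylated noncoding RNAs made by RNA polymerases II and III are further known substrates. The vault RNAs, Y RNAs, tRNAs and the U6 and U6atac snRNAs are polymerase III transcripts, the other spliceosomal snRNAs come from polymerase II, and most snoRNAs are trimmed out of introns of host genes.

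Library totals were 723919, 1219718 and 503699 fragments in mut libraries 1 to 3 and 515938, 493314 and 585737 in WT libraries 1 to 3, and 85.7% to 90.6% of them lay in annotated features. Levels are given as FPM, fragments per 1000000 of the library total. Of the cell type markers among microRNA precursors, 4 of the 9 listed of the HEK293 and general list held fragments (19, 35 and 22 in the mut and 22, 29 and 34 in the WT libraries). Every listed precursor of blood, muscle, neuron, mesenchyme and pluripotent cells was at 0. Only 59 of 1540 microRNA precursors other than let-7 held a fragment, so these zeros say little about the cell type. Mut library 3 stood apart from the other mut libraries. The chi-square per degree of freedom over the tested features was 38.3 between mut libraries 1 and 2, and 149.1 and 152.5 between mut library 3 and these. It was 13.4 to 14.1 among the WT libraries. Against the WT libraries it was 21.1 to 50.3 for mut library 3 and 57.7 to 97.8 for mut libraries 1 and 2. This statistic grows with depth, so values of libraries of unlike depth are not directly comparable. Since mut library 3 stood apart, values without it are given beside the features described here that passed the test when it was left out. With any other library left out, VTRNA1-2 alone or no feature passed.

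In the test of all 559 features (edgeR quasi-likelihood with Benjamini-Hochberg adjustment at 0.05), 1 feature was higher in mut, 0.179% of those tested, and 0 were lower. At an unadjusted p under 0.05 there were 38 features, 6.8% of those tested, 21 higher (3.76%) and 17 lower (3.04%). DESeq2 on the same counts called 2 features, VTRNA1-2 and RNY4, both higher. The FPM of the 3 mut libraries lay above all WT libraries in 19 features (3.4%) and below them in 38 (6.8%), so that the groups did not overlap in 57 (10.2%). The median fitted change over all features was 0.02 on the log2 scale, with 52.6% above 0, and 13 features (2.33%) were fitted at more than 2-fold.

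**Figure D1:**
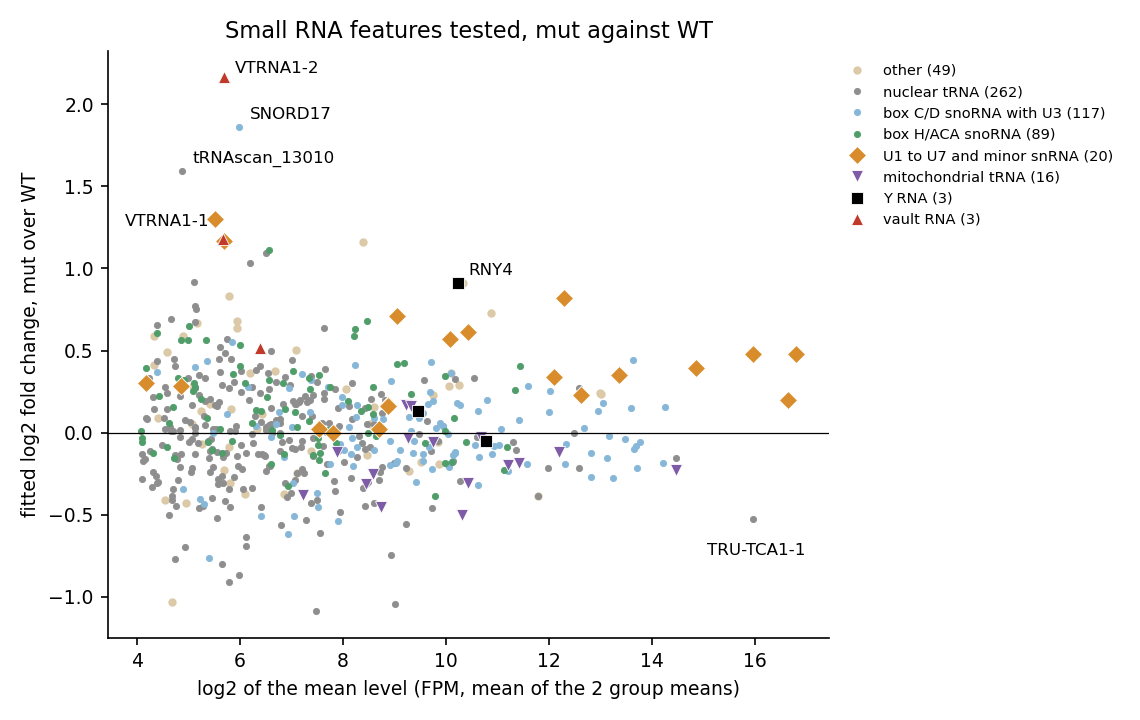
Fitted log2 fold change of mut over WT (vertical axis) against the log2 mean FPM (horizontal axis) of the 559 tested features, 1 point each, coloured by RNA class with the number of features in the key. VTRNA1-2 lies highest at 2.16, and the abundant selenocysteine tRNA gene TRU-TCA1-1 lies at -0.53.

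The vault RNAs are short polymerase III transcripts, part of which is bound in the vault, a large cytoplasmic ribonucleoprotein particle. The genes VTRNA1-1, VTRNA1-2 and VTRNA1-3 lie in a cluster on chromosome 5, and all 3 were tested. VTRNA1-2 (chr5:140718925-140719013, hg38, + strand) held 65, 99 and 41 mut fragments and 11, 9 and 12 WT fragments in libraries 1 to 3. Its level was 89.8, 81.2 and 81.4 FPM in mut libraries 1 to 3 and 21.3, 18.2 and 20.5 FPM in WT libraries 1 to 3. The mut libraries lay close together and far above the WT libraries, and mut library 3 did not differ in this from the others. The mean level was 84.1 ± 4.91 FPM (SD, n = 3) against 20.0 ± 1.59 FPM (SD, n = 3), a ratio of 4.48. In edgeR's quasi-likelihood test the log2 fold change was 2.16 (SE 0.27) with an adjusted p of 0.0072. Leaving out 1 library at a time kept the change between 2.05 and 2.28, but edgeR's adjusted p was 0.057 without mut library 1, 0.096 without WT library 2 and 0.13 without WT library 3. In a bulk library, more RNA per cell and a larger share of cells containing it cannot be told apart.

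VTRNA1-1 (chr5:140711275-140711373) was at 67.7, 86.9 and 51.6 FPM in the mut and 33.0, 20.3 and 46.1 FPM in the WT libraries. The groups did not overlap, though mut library 3 and WT library 3 were close. Its log2 fold change was 1.18 (SE 0.35) with an adjusted p of 0.31 in edgeR, so it did not pass. Without mut library 3 it was 1.40, with an edgeR adjusted p of 0.019. With any other library left out, that p was 0.52 to 0.93.

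VTRNA1-3 (chr5:140726158-140726246) was at 98.1, 87.7 and 101.3 FPM in the mut and 54.3, 85.1 and 75.1 FPM in the WT libraries. Mut library 2 and WT library 2 almost met. The log2 fold change was 0.52 (SE 0.23, edgeR adjusted p 0.69). Per length, VTRNA1-3 was the highest of the 3 at a mean of 939 FPKM (FPM per kilobase of feature length) over all libraries, against 585 FPKM for VTRNA1-2 and 514 FPKM for VTRNA1-1. Together the vault RNAs took 0.0256%, 0.0256% and 0.0234% of the mut libraries and 0.0109%, 0.0124% and 0.0142% of the WT libraries. The exact two-sided permutation p for that share was 0.1, the smallest that 3 against 3 libraries allow, and 0.667 after adjustment over 20 RNA classes. VTRNA2-1, a further vault-like RNA, was not analysed here.

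**Figure D2:**
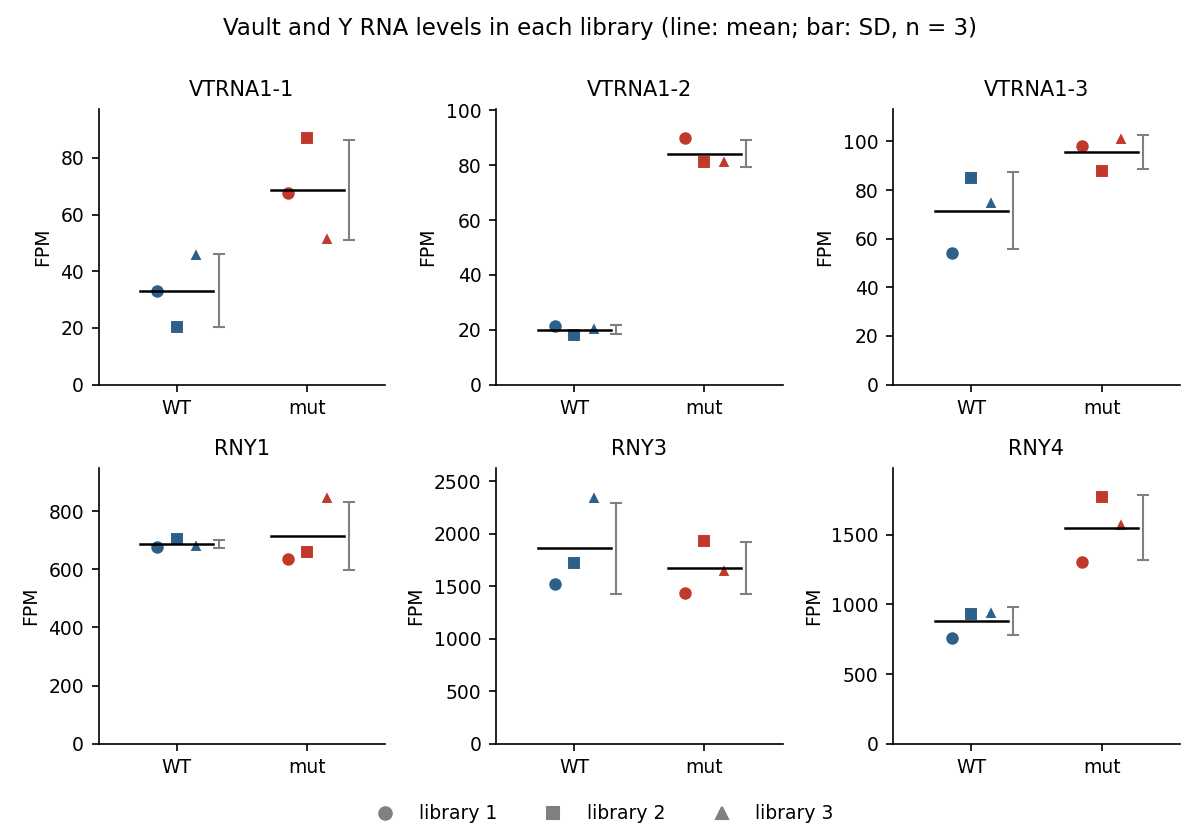
FPM of the 3 vault RNAs (upper row) and 3 Y RNAs (lower row) in each library, with WT libraries in blue and mut libraries in red, the marker shape giving the library number, a line at the group mean and a bar for ± 1 SD (n = 3). VTRNA1-2 and RNY4 show groups well apart, VTRNA1-1 and VTRNA1-3 narrowly apart, and RNY1 and RNY3 overlapping groups.

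The Y RNAs are polymerase III transcripts that bind the Ro60 and La proteins, and RNY1, RNY3 and RNY4 were tested while RNY5 was not analysed here. RNY4 (chr7:148963315-148963410) was at 1304, 1768 and 1576 FPM in the mut and 762, 932 and 949 FPM in the WT libraries. Every mut library lay above every WT library. The mean level was 1550 ± 233 FPM against 881 ± 104 FPM (SD, n = 3 each), a ratio of 1.88. The log2 fold change was 0.91 (SE 0.18) and edgeR's adjusted p was 0.11, so the feature did not pass. DESeq2's adjusted p was 0.0047, and edgeR's adjusted p was 0.0094 without mut library 3. With any other library left out, edgeR's adjusted p was 0.30 to 0.59.

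RNY1 (chr7:148987136-148987248) was at 635, 661 and 848 FPM in the mut and 676, 703 and 685 FPM in the WT libraries. RNY3 (chr7:148983755-148983856) was at 1438, 1927 and 1658 FPM in the mut and 1518, 1719 and 2347 FPM in the WT libraries. In both the groups overlapped. Their log2 fold changes were 0.13 (SE 0.15) and -0.05 (SE 0.20), with edgeR adjusted p of 0.86 and 0.97. The difference between RNY4 and its neighbours RNY1 and RNY3 was not tested.

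The spliceosomal snRNAs form the cores of the major and minor spliceosomes, and U7 acts in histone mRNA 3′ end formation. Of 20 tested snRNAs 0 passed edgeR's adjusted test, 3 had an unadjusted p under 0.05, all higher (3.76% of all features), and 19 had a fitted change above 0 (52.6% of all features), with a median of 0.35 against 0.02 over all features. RNU11 is listed as 2 transcripts with nearly the same counts, so the 20 hold 1 gene 2 times. Without scaling factors for composition 17 of 20 were above 0, and with the trend of change on feature length removed, an alternative chosen after seeing the data, 16 of 20 with a median of 0.11. The median was 0.65 without mut library 3 and 0.15 without mut library 1. U5 RNAs took 28.4%, 29.2% and 13.8% of the mut libraries against 19.1%, 17.6% and 19.9% of the WT libraries.

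The U5 genes include the most abundant features per length in the libraries. RNU5A-1 (chr15:65296051-65296166) averaged 989225 FPKM over all libraries, ahead of the selenocysteine tRNA gene TRU-TCA1-1 at 745752, RNU12 at 680159 and RNU5B-1 at 551207 FPKM. RNU5A-1 was at 147467 and 167187 FPM in mut libraries 1 and 2, at 69702 FPM in mut library 3, and at 98710, 98836 and 106599 FPM in the WT libraries. Mut libraries 1 and 2 lay above and mut library 3 below every WT library. The log2 fold change was 0.48 (SE 0.37, edgeR adjusted p 0.78), and without mut library 3 it was 0.82 with an edgeR adjusted p of 0.0053. RNU5B-1, RNU5E-1 and RNU5F-1 had the same arrangement of libraries, with log2 fold changes of 0.48, 0.39 and 0.82, none of which passed. All 4 U5 genes passed without mut library 3.

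Among the U1 features, 6 were tested, all of them variant U1 genes of chromosome 1, and all 6 had a fitted change above 0, with a median of 0.59, as against 5 of 6 without WT library 3. RNVU1-15 (chr1:144412576-144412740) was at 77.4, 77.1 and 35.7 FPM in the mut and 32.9, 20.3 and 32.4 FPM in the WT libraries. RNVU1-27 (chr1:148522601-148522765) was at 76.0, 82.0 and 51.6 FPM in the mut and 32.9, 26.4 and 42.7 FPM in the WT libraries. Mut library 3 was the lowest mut library in both and still above every WT library. Their log2 fold changes were 1.30 (SE 0.40) and 1.17 (SE 0.32), with edgeR adjusted p of 0.33 and 0.28. Without mut library 3 they were 1.61 and 1.39, with edgeR adjusted p of 0.0059 and 0.010. RNVU1-31 and RNVU1-7 had fitted changes of 0.57 and 0.61, and in both mut library 3 lay within the range of the WT libraries. Without it they were 0.87 and 0.94, with edgeR adjusted p of 0.019 and 0.027. Genes with near-identical copies were thinly counted: the canonical RNU1-1 held 1 to 23 fragments per library and RNU2-1 is listed at 0, so values of single U1, U2 and U6 copies are uncertain.

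RNU4-2 (chr12:120291763-120291903), a major U4 gene, was at 13536 and 15550 FPM in mut libraries 1 and 2, at 4765 FPM in mut library 3, and at 9836, 7561 and 12166 FPM in the WT libraries. In it and its paralog RNU4-1, mut libraries 1 and 2 lay above and mut library 3 below every WT library. The log2 fold changes were 0.35 (SE 0.43) and 0.23 (SE 0.37), and neither passed. With 1 library left out RNU4-2 ranged from 0.0414 to 0.75, the highest without mut library 3, where edgeR's adjusted p was 0.035. RNU2-2 was fitted at 0.34, RNU6-9 at 0.00 and RNU7-1 at 0.02.

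In the minor spliceosome, which removes a rare class of introns, RNU4ATAC (chr2:121530881-121531007) was at 798, 709 and 409 FPM in the mut and 450, 355 and 483 FPM in the WT libraries. Mut library 3 lay among the WT libraries. The log2 fold change was 0.71 (SE 0.30, edgeR adjusted p 0.69), and without mut library 3 the edgeR adjusted p was 0.011. RNU12 ranged from 69184 to 142672 FPM in the mut and from 89014 to 113167 FPM in the WT libraries. RNU11 and RNU6ATAC were fitted at 0.17 and 0.02.

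Among features named as snRNA pseudogenes, RNU5E-4P (chr1:11909808-11909927) was at 488, 615 and 244 FPM in the mut and 213, 203 and 251 FPM in the WT libraries. Mut libraries 1 and 2 lay above the WT libraries and mut library 3 within them. Its log2 fold change was 1.16 (SE 0.35, edgeR adjusted p 0.31), and 1.50 without mut library 3 with an edgeR adjusted p of 0.0011. RNU5A-8P was fitted at 0.73, with mut library 3 below every WT library, and at 1.08 without it (edgeR adjusted p 0.0059). An unnamed feature (ENST00000363299.1) that overlaps the RefSeq gene RNU5D-1 lies outside the naming rule and was chosen after its values were seen. It was fitted at 0.91, and at 1.23 without mut library 3 (edgeR adjusted p 0.0059).

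**Figure D3:**
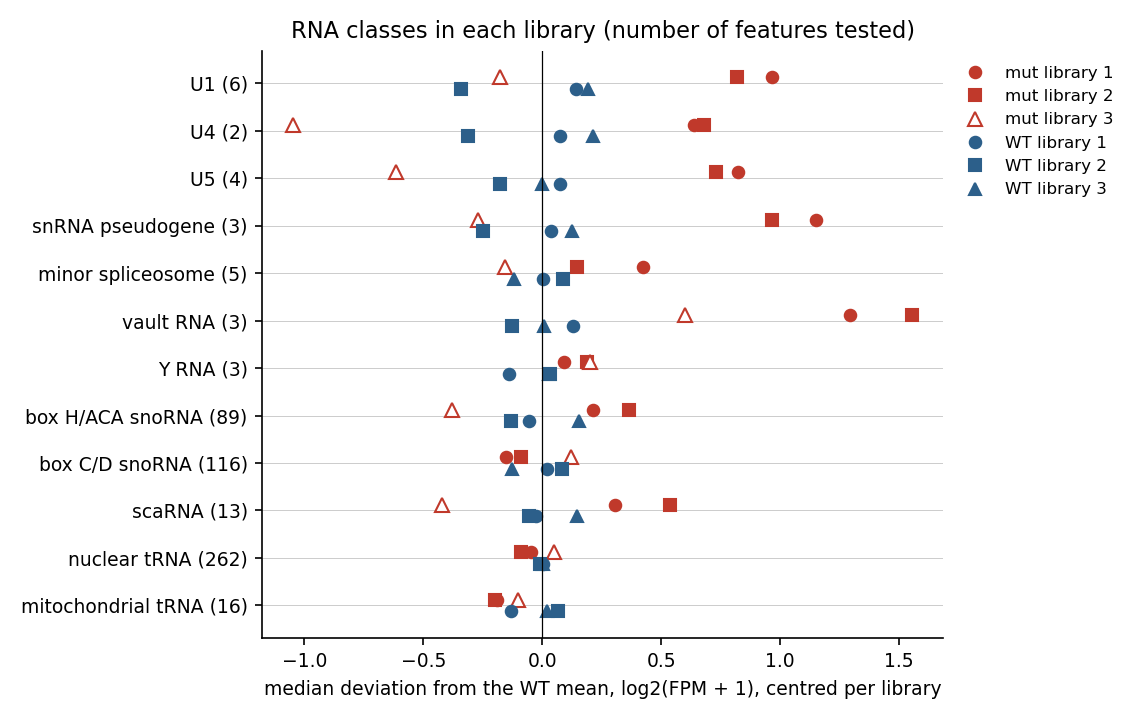
Median deviation of each RNA class from the mean of the WT libraries, on the log2(FPM + 1) scale and centred on each library's median (horizontal axis), for 12 classes (vertical axis, number of tested features in parentheses), with 1 marker per library. The open triangle of mut library 3 lies left of the red markers of mut libraries 1 and 2 for U1 (-0.18 against 0.97 and 0.82), U4, U5, the H/ACA snoRNAs and the scaRNAs.

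The split of the mut libraries went with feature length. Of the fragments in annotated features, 35.7% and 39.3% lay in features of up to 90 nt in mut libraries 1 and 2, 59.8% in mut library 3, and 47.9% to 53.4% in the WT libraries. In the 36 tested features of 111 to 130 nt, the median deviation from the WT mean was 0.43 and 0.51 (log2) in mut libraries 1 and 2 and -0.27 in mut library 3. In the 237 features of 71 to 75 nt it was -0.07, -0.10 and 0.08. The part of insert size selection in these differences was not tested.

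Without mut library 3, edgeR called 30 of 579 features (5.18%), 27 higher (4.66%) and 3 lower (0.518%). The 27 comprised 10 snRNAs, 2 snRNA pseudogenes, 2 vault RNAs, RNY4, 6 H/ACA snoRNAs, 2 C/D snoRNAs, SCARNA16, 2 tRNA genes and the unnamed feature over RNU5D-1. In the library left out, 8 of the 27 were above every WT library, 8 within the WT range and 11 below every WT library, while the 3 lower features were below every WT library. The 8 were VTRNA1-2, VTRNA1-1, RNY4, RNVU1-15, RNVU1-27, SNORA36B, TRK-CTT14-1 and TRE-TTC6-1. With 1 library left out, their highest edgeR adjusted p was 0.13 for VTRNA1-2 and 0.59 to 0.9997 for the others. The called features were chosen against the same WT libraries, so these positions are no independent support. The share of all features in each position was not computed.

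**Figure D4:**
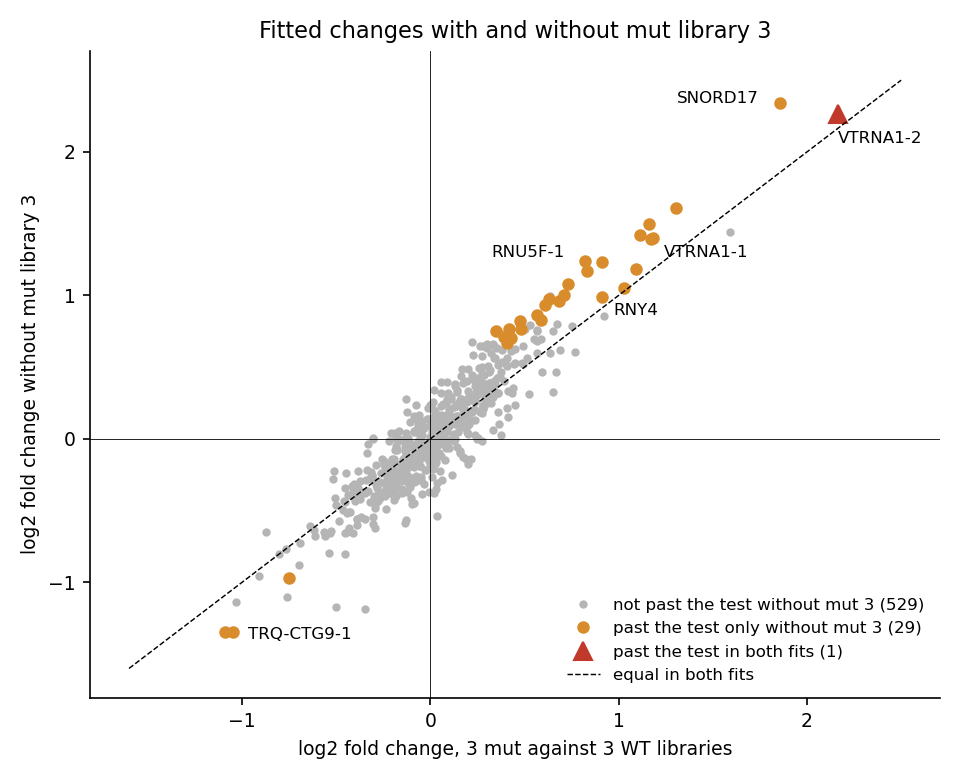
Fitted log2 fold change without mut library 3 (vertical axis) against that with all 6 libraries (horizontal axis) for the 559 features tested with all libraries, with the 29 features past the adjusted test only without mut library 3 in orange and VTRNA1-2, past it in both fits, as a red triangle. VTRNA1-2 lies close to the dashed line of equal values (2.16 and 2.27), whereas RNU5F-1 lies above it (0.82 and 1.24).

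Nuclear tRNAs made up 10.9%, 13.6% and 17.7% of the mut and 16.9%, 18.4% and 17.7% of the WT libraries. The class takes every feature of the tRNA gene list, so it includes the mitochondrial TRNL1, which also counts among the mitochondrial tRNAs below. Of 262 tested tRNA genes 0 passed the adjusted test, and at an unadjusted p under 0.05 in edgeR 7 were higher and 15 lower, where 3.76% and 3.04% of all features were. The median fitted change was -0.03, with 122 above 0. The number above 0 was 88 without composition factors and 135 without WT library 1, where the median was 0.01. In the names used here the letter after TR is the amino acid, the next 3 letters are the anticodon and the numbers are the isodecoder family and the copy. How fragments matching several copies were counted is not given, so values of single tRNA copies are uncertain too. Without mut library 3, for example, TRV-CAC1-4 was fitted at -1.34 and TRV-CAC1-5 at -0.14. TRK-CTT14-1 (chr16:3196153-3196225, a lysine tRNA gene) was at 101, 142 and 123 FPM in the mut and 62.0, 58.8 and 63.2 FPM in the WT libraries. All mut libraries lay above all WT libraries, which lay close together. The mean levels of 122 ± 20.5 FPM and 61.3 ± 2.27 FPM (SD, n = 3 each) gave an edgeR log2 fold change of 1.09 (SE 0.22, adjusted p 0.11). Without mut library 3 edgeR's adjusted p was 0.011, and with any other library left out it was 0.23 to 0.59.

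TRE-TTC6-1 (chr1:148308922-148308993, glutamate) was at 77.4, 104 and 109 FPM in the mut and 52.3, 52.7 and 46.1 FPM in the WT libraries. The feature tRNAscan_13010 (chr6:27777885-27777956), which has no RefSeq name within the tolerance used, was at 31.8, 39.4 and 61.5 FPM in the mut and 5.81, 22.3 and 17.1 FPM in the WT libraries. In both the groups did not overlap. Their log2 fold changes were 1.03 (SE 0.22) and 1.59 (SE 0.39), with edgeR adjusted p of 0.13 and 0.25. Without mut library 3 the adjusted p of TRE-TTC6-1 in edgeR was 0.025. TRN-GTT9-2 (asparagine) was fitted at 0.63 with mut libraries also above WT libraries.

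On the lower side, TRV-CAC1-4 (chr5:181173650-181173722, valine) was at 58.0, 108 and 173 FPM in the mut and 225, 300 and 213 FPM in the WT libraries. TRQ-CTG9-1 (chr1:148353561-148353632, glutamine) was at 289, 198 and 510 FPM in the mut and 843, 661 and 599 FPM in the WT libraries. The mut libraries lay below the WT libraries in both, with mut library 3 nearest to them. The log2 fold changes were -1.09 (SE 0.29) and -1.05 (SE 0.28), each with an edgeR adjusted p of 0.28. TRV-CAC2-1, at -0.75, had the same arrangement, and these 3 genes were the ones called lower without mut library 3, at -1.34 for TRV-CAC1-4, -1.35 for TRQ-CTG9-1 and -0.97 for TRV-CAC2-1. Other tRNA genes with small unadjusted p and lower mut levels were tRNAscan_12960 (-0.91), TRK-CTT5-1 (-0.80), TRP-TGG3-5 (-0.61), TRA-AGC2-2 (-0.56) and TRG-TCC3-1 (-0.48), none past the adjusted test.

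The selenocysteine tRNA gene TRU-TCA1-1 (chr19:45478602-45478687), whose tRNA inserts selenocysteine at recoded stop codons, was the most abundant tRNA feature. It was at 34291, 52745 and 66943 FPM in the mut and 78048, 77888 and 74894 FPM in the WT libraries. The mut libraries were spread widely and all lay below the WT libraries, which lay close together. The log2 fold change was -0.53 (SE 0.24, edgeR adjusted p 0.70). Summed over genes of an isotype, selenocysteine and isoleucine tRNAs were lower in every mut library and glycine tRNAs higher, in 3 of 25 sums. Among all features the groups did not overlap in 10.2%. The 25 include sums of features without a named isotype, and a sum that was 0 in every library. Glycine tRNAs summed to 10080, 10180 and 10460 FPM in the mut and 9187, 9292 and 9337 FPM in the WT libraries, and isoleucine tRNAs to 455, 525 and 614 FPM against 661, 657 and 661 FPM. For each of the 3 the exact two-sided permutation p was 0.1, the smallest that 3 against 3 libraries allow, and 0.667 after adjustment.

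**Figure D5:**
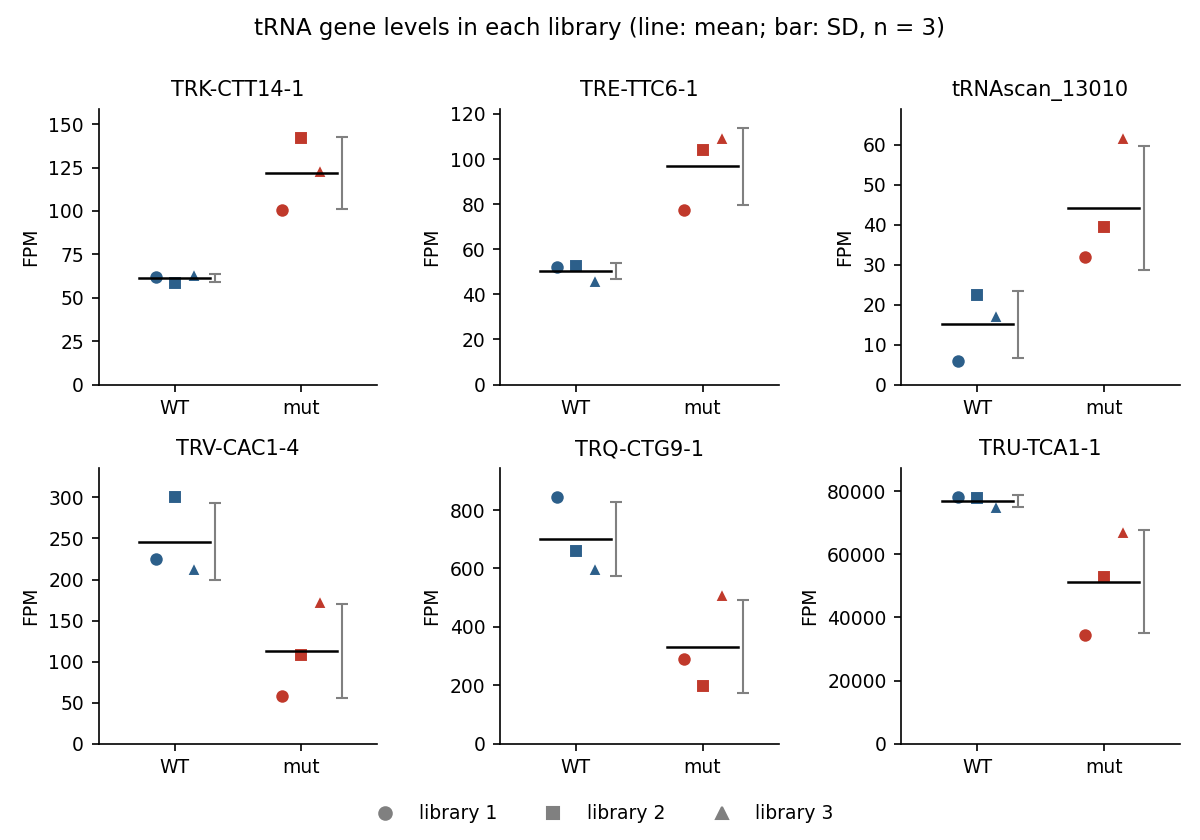
FPM of 6 tRNA genes in each library, with WT libraries in blue and mut libraries in red, the marker shape giving the library number, a line at the group mean and a bar for ± 1 SD (n = 3). In the upper row (TRK-CTT14-1, TRE-TTC6-1, tRNAscan_13010) the mut libraries lie above the WT libraries, and in the lower row (TRV-CAC1-4, TRQ-CTG9-1, TRU-TCA1-1) below them.

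A grouping of tRNA genes by isodecoder family number was not among the planned comparisons. The 13 tested tRNA genes with a number of 9 or more had a median fitted change of 0.28, with 10 above 0. In edgeR 3 of them were higher and 1 lower (TRQ-CTG9-1) at an unadjusted p under 0.05, where 3.76% and 3.04% of all features were. The 67 genes with number 1 had a median of 0.07, with 0 higher and 2 lower at that p, and the 69 with number 2 a median of -0.10, with 0 higher and 3 lower. The 63 with number 3 or 4 had a median of -0.13, with 2 higher and 5 lower, and the 40 with numbers 5 to 8 a median of -0.01, with 1 higher and 3 lower. Without mut library 3 the median was 0.31 for 9 or more, -0.02 for 1 and -0.17 for 2. It was -0.15 for 3 or 4 and 0.04 for 5 to 8. The 22 mitochondrial tRNA features gave 16 tested, of which 0 passed, 2 were fitted above 0 (4 with the length trend removed, 5 without mut library 2) and the median was -0.19 (-0.09 without mut library 2). TRNV, the mitochondrial valine tRNA, was at 16992, 17715 and 26325 FPM in the mut and 23113, 24027 and 27915 FPM in the WT libraries, with overlapping groups. TRNE, for glutamate, was at 140, 105 and 135 FPM against 171, 178 and 178 FPM, with the mut libraries below the WT libraries and an edgeR log2 fold change of -0.38 (SE 0.19, adjusted p 0.70).

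The snoRNAs guide chemical modification or processing of rRNA, box C/D RNAs mainly 2′-O-methylation and box H/ACA RNAs mainly pseudouridylation. Of 116 tested box C/D snoRNAs 0 passed, 54 were fitted above 0 and the median was -0.03. With 1 library left out, the number above 0 went from 42 without mut library 3 (median -0.12) to 66 without WT library 1 (median 0.05). Their share of the library was 23.2%, 23.0% and 33.3% in the mut and 27.7%, 30.1% and 26.6% in the WT libraries. The snoRNA values here and below leave out unnamed features that overlap snoRNA genes, such as SNORD58C, SNORD99 and SNORA65. Unnamed features of all kinds took 2.79% to 4.09% of the libraries. SNORD118 (U8), needed for processing of the large subunit rRNAs, was at 18752, 19362 and 12984 FPM in the mut and 19789, 19661 and 23966 FPM in the WT libraries. The mut libraries lay below the WT libraries, narrowly so for libraries 1 and 2, and the log2 fold change was -0.19 (SE 0.26, edgeR adjusted p 0.86).

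SNORD88B was at 84.3, 86.1 and 109 FPM in the mut and 165, 160 and 128 FPM in the WT libraries, with groups apart. Its log2 fold change was -0.62 (SE 0.20), with an adjusted p of 0.37 in edgeR. SNORD17 was fitted at 1.86 (SE 0.76, edgeR adjusted p 0.69). Mut library 2 decided that value: it stood at 216 FPM, against 52.5 and 19.9 FPM in the other mut and 19.4 to 46.6 FPM in the WT libraries, and the fitted change was 0.39 without it. It was 2.34 without mut library 3, with an edgeR adjusted p of 0.020. U3 (SNORD3A), needed for small subunit rRNA processing, was fitted at -0.07 and SNORD24 at 0.16.

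Of 89 tested box H/ACA snoRNAs 0 passed, 60 were fitted above 0 and the median was 0.12. The number above 0 was 53 in DESeq2, 54 with DESeq2's size factors and 79 without mut library 3 (median 0.27). The direction turned without composition factors (44 above 0), in limma (39), with the length trend removed (40) and without mut library 2 (33 of 87). SNORA36B (chr1:220200546-220200676) and SNORA36A (chrX:154768528-154768659) are shown here because they overlap the RefSeq microRNA hairpins MIR664A (74 of its 82 nt) and MIR664B (all 61 nt), so that fragments of either RNA can fall in the snoRNA feature. SNORA36A lies outside the naming rule and was chosen after its values were seen. The RefSeq hairpins (GRCh38.p14, 5′ to 3′) are printed with the annotated mature microRNA arms in capitals.
MIR664A (chr1:220200538-220200619, - strand): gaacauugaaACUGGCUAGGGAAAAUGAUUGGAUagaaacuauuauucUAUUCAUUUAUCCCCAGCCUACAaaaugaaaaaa
MIR664B (chrX:154768596-154768656, + strand): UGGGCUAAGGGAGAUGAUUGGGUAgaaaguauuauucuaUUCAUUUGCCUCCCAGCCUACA
SNORA36B was at 156, 151 and 71.5 FPM in the mut and 67.8, 58.8 and 68.3 FPM in the WT libraries, and SNORA36A at 749, 680 and 302 FPM against 479, 399 and 562 FPM. Mut library 3 was the lowest mut library in both and above the WT libraries only in SNORA36B. Their log2 fold changes were 1.11 (SE 0.35, edgeR adjusted p 0.36) and 0.42 (SE 0.36, edgeR adjusted p 0.81). They were 1.42 and 0.76 without mut library 3, with edgeR adjusted p of 0.0031 and 0.035.

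The scaRNAs guide modification of snRNAs in Cajal bodies. Of 13 tested 0 passed, 10 were fitted above 0 and the median was 0.17, which turned to -0.01 with the length trend removed, -0.02 in limma on log2(FPM + 1) and -0.11 without mut library 2, and was 0.39 without mut library 3. SCARNA15 was at 24.9, 23.8 and 21.8 FPM in the mut and 17.4, 16.2 and 17.1 FPM in the WT libraries, with groups apart and an edgeR log2 fold change of 0.59 (SE 0.30, adjusted p 0.70). SCARNA16 was at 77.4, 93.5 and 33.8 FPM against 52.3, 36.5 and 41.0 FPM, with mut library 3 below the WT libraries. It was fitted at 0.83, and at 1.17 without that library (edgeR adjusted p 0.019).

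MicroRNA precursors other than let-7 were thinly covered: 59 of 1540 held a fragment and 3 were tested. The 5 features named as let-7 precursors, 3 of them with a fragment, held 6, 4 and 1 fragments in the mut and 5, 0 and 0 in the WT libraries. They lay below the filter, so a difference was not detectable at this depth. Any let-7 gene that the coordinate match left unnamed is not in these counts. Inserts were selected from 20 nt, so counts of the let-7 and other microRNA features do not separate hairpins from mature arms. The hairpins of the 2 tested precursors with a RefSeq sequence are printed to show the features counted, with mature arms in capitals.
MIR16-1 (chr13:50048973-50049061, - strand): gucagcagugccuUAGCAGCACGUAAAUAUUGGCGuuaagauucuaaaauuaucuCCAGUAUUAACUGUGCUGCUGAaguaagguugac
MIR20A (chr13:91351065-91351135, + strand): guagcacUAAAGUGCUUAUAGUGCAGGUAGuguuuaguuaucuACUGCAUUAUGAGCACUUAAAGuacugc
MIR16-1 was at 29.0, 30.3 and 47.6 FPM in the mut and 27.1, 20.3 and 25.6 FPM in the WT libraries, with groups narrowly apart. MIR20A, of the miR-17-92 cluster, was at 19.3, 24.6 and 33.8 FPM against 31.0, 42.6 and 35.9 FPM, with overlapping groups. Their log2 fold changes were 0.59 (SE 0.28) and -0.43 (SE 0.27), and neither passed. MIR3609 was fitted at 0.68 with overlapping groups.

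The loci reconstructed from the reads were tested separately, since they contain the annotated features. Of 589 tested loci 1 was higher (0.17%) and 0 lower in edgeR's adjusted test, and 46 (7.81%) had an unadjusted p under 0.05, 30 higher (5.09%) and 16 lower (2.72%). The called locus (chr5:140718903-140719110) surrounds VTRNA1-2, with a log2 fold change of 2.14 and an adjusted p of 0.010. It held 66, 102 and 41 mut and 12, 9 and 12 WT fragments, nearly those of VTRNA1-2, so it is no separate result. EdgeR's adjusted p for it was 0.0736 with a replicate block and 0.058 without mut library 1 and without mut library 2. It was 0.109 without WT library 2 and 0.117 without WT library 3. The loci over RNY4, TRK-CTT14-1 and TRE-TTC6-1, none of which passed, had log2 fold changes of 0.91, 1.07 and 1.03.

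A locus over FTL, the ferritin light chain mRNA, lies outside the naming rule and was chosen after its values were seen. It spans 116 nt at chr19:48965307-48965422 on the + strand, and covers the first 114 nt of the RefSeq gene in coordinate order. It held 39, 59 and 33 fragments in the mut and 5, 11 and 10 in the WT libraries, or 53.9, 48.4 and 65.5 FPM against 9.69, 22.3 and 17.1 FPM. All mut libraries, library 3 included, lay above all WT libraries. The log2 fold change was 1.84 (SE 0.32) and edgeR's adjusted p 0.052, just short of the threshold. DESeq2's adjusted p was 0.011, edgeR's with robust estimation 0.0345 and edgeR's without mut library 3 0.0076. EdgeR's adjusted p was 0.0458 with DESeq2 size factors, 0.0379 with the length trend removed and 0.000176 with no filter on low counts. It was 0.0518 without composition factors and 0.306 with a replicate block. With any library other than mut library 3 left out it was 0.10 to 0.196. Limma's adjusted p was 0.0216 on log2(FPKM + 1) and 0.057 on log2(FPM + 1). A locus over the GAS5 host gene, also outside the naming rule and chosen after its values were seen, which also covers SNORD47, SNORD80 and SNORD81, was at 6085, 6793 and 8221 FPM in the mut and 5076, 5193 and 5262 FPM in the WT libraries, with groups apart and a log2 fold change of 0.52 (edgeR adjusted p 0.25).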

How the data were processed

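The authors deposited, for each library and feature, the raw fragment count, the fragments per 1000000 (FPM, a depth-scaled signal) and FPKM, per the file headers, in hg38 coordinates. The submitters' processing notes name STAR 2.4.0, DESeq2 1.8.2, HTSeq 0.6.1, CASAVA 1.8.2, FastQC 0.11.3 and SAMtools 1.2-10 without roles, and how fragments with several alignments were counted is not given in the sources used here. Library totals are the denominators behind FPM, since features and loci overlap. Of the 10796 annotated features, 5695 took the name of a RefSeq gene (GRCh38.p14) whose start and end were each at most 5 nt away (28 with several matches); the strand of RefSeq genes was not used.

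Counts of the 3 mut and 3 WT libraries were tested with edgeR 4.0.16 (TMM, filterByExpr, quasi-likelihood F test, R 4.3.3), annotated features and reconstructed loci apart, two-sided, with Benjamini-Hochberg adjustment over all features tested. Standard errors come from the fold change and F. The 559 tested features held 99.8% of the annotated fragments, and 3 repeat another feature's counts. Class shares and isotype sums used exact permutation over 20 assignments. The code was tested on simulated data. Alternatives were DESeq2 1.42.0, limma 3.58.1 on log2(value + 1), other scalings and filters, a replicate block and leaving out each library. No replicate pair agreed within sampling noise. Named features are those past the test, the 10 rises and 10 falls with the smallest p, the 2 most abundant and the 2 with the smallest p per class, the 5 most abundant, and a list of vault, Y and other RNAs, 62 in all. The members and lists were chosen with earlier results of these data known. Fragment counts without molecular identifiers are not independent molecules. The total RNA libraries were not used.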

Additional observations from a re-analysis of the deposited data

How the results depend on the processing

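The count of called features stayed at 1 without TMM factors, with DESeq2 size factors, with robust estimation, at an adjusted p under 0.1, in both limma fits, in 1 fit with the loci and with repeated features entered singly. It was 2 with DESeq2, 2 with the length trend removed (chosen after seeing the data), 14 with no filter on low counts, of 1065 features, and 0 of 368 with at least 50 fragments on average (21 at an unadjusted p under 0.05 in edgeR), which leaves VTRNA1-2 out. Leaving out 1 library at a time gave 0 to 30. For the reconstructed loci the count of 1 became 4 with DESeq2, 2 with DESeq2 size factors, 27 with no filter, 0 with at least 50 fragments (29 at an unadjusted p under 0.05), 2 with robust estimation, 2 in limma on log2(FPKM + 1), 2 with the length trend removed, and 0 to 42 with 1 library left out. Without TMM factors 40.3% and in limma on log2(FPM + 1) 37.4% of the features were above 0, against 52.6%.

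With the replicate number as a block, 1 feature (VTRNA1-2, log2 fold change 2.15) and 0 loci (36 at an unadjusted p under 0.05) were called by edgeR. The deviations of same-numbered libraries had correlations of 0.2, -0.142 and -0.362. They were taken from the mean of each group of 3, so they cannot decide whether the numbers pair the samples. The groups did not overlap in 3 RNA classes and 3 tRNA isotype sums. For the replicate block another rule was counted, that every mut library lay on the same side of the WT library of its number. It was met by 5 of 20 classes and 9 of 25 isotype sums. That rule is easier to meet than non-overlap of the groups, so the higher counts do not show groups further apart. With 1 library left out, non-overlap is also easier to meet. It then held in 3 to 13 classes and 3 to 17 isotype sums, the most without mut library 3.

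VTRNA1-2 kept its direction with each of 6 libraries left out and in the 11 other alternatives that tested it. SCARNA3 (0.02) turned to -0.0199 (DESeq2), -0.113 (no TMM), -0.0016 (DESeq2 size factors), -0.0913 (block), -0.243 and -0.239 (limma on FPKM and FPM) and -0.201 (length trend). RNU6ATAC turned to -0.0885 without TMM, -0.0857 and -0.0854 in the limma fits and -0.0929 with the length trend removed. RNU7-1 turned to -0.0588 without TMM and -0.0592 and -0.0591 in limma, RNU4-1 to -0.0150 in both limma fits and -0.0108 with the length trend removed, and RNU12 to -0.0277 with it removed. Leaving out 1 library turned the sign of RNU12 (-0.18 to 0.48), RNU6-9 (-0.18 to 0.11), RNU6ATAC (-0.16 to 0.17), RNU7-1 (-0.0579 to 0.13), RNY3 (-0.21 to 0.11), SCARNA3 (-0.47 to 0.34), SNORD118 (-0.33 to 0.0431), SNORD24 (-0.0833 to 0.30), SNORD3A (-0.36 to 0.13), TRE-TTC4-1 (-0.29 to 0.0322) and TRNS2 (-0.31 to 0.0415). The cause was not tested. Features with few fragments, such as the let-7 precursors, are limited by depth.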
